A study of Mus musculus with 10 samples.

Results

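The nuclear genes for the subunits of the mitochondrial respiratory chain were examined in epididymal white adipose tissue (eWAT) of mice fed a high-fat diet (HFD) and treated with an iron chelator. Members were the non-control probes whose gene symbol on the array begins with Ndufa, Ndufb, Ndufc, Ndufs, Ndufv, Uqcr, Cox4 to Cox8 or Atp5, or is Sdha, Sdhb, Sdhc or Sdhd. The rule found 143 spots, which were 134 of the 55681 probes on the array and carried 90 gene symbols. Of these genes, 81 encode subunits: 36 of complex I, 4 of complex II, 8 of complex III, 18 of complex IV and 15 of complex V. The other 9 symbols match the pattern but name assembly factors, paralogues or unrelated neighbours.

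The tissue came from 10 adult male wildtype mice, named in the labels both as C57BL/6JOlaHsd and as C57BL/6J. They were given a purified low-fat diet for 3 weeks and the HFD for 12 weeks, and were housed at thermoneutrality (29°C). All 10 were injected with desferrioxamine (DFO), a drug that binds iron, at 100 mg/kg body weight once a day for 5 days, and were killed on day 6 after 2 h without food. Each array carried Cy5-labelled cRNA of 1 mouse and a Cy3-labelled pool of cRNA from all mice of the wider study, its control mice included. No array of a control mouse was analysed here, so DFO itself is not compared with anything, and what is described is how the members vary between the treated mice. Dyes were not swapped, so a log2 ratio of Cy5 to Cy3 also holds the dye bias of its probe and was not tested against 0. Mice are named by their replicate number.

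The respiratory chain lies in the inner mitochondrial membrane. Complex I (NADH dehydrogenase) and complex II (succinate dehydrogenase) pass electrons to coenzyme Q, complex III passes them to cytochrome c, complex IV (cytochrome c oxidase) passes them to oxygen, and complex V (ATP synthase) uses the proton gradient to make ATP. Complexes I, II and III hold iron-sulfur clusters, and complexes II, III and IV hold haem, so iron enters the chain at many points. White adipocytes have few mitochondria compared with brown adipocytes but need them for fatty acid synthesis and triglyceride storage.

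A probe counted as expressed if the scanner flagged Cy5 well above background for 5 or more of the 10 mice. By this rule 129 of the 134 member probes were expressed, and 79 of the 81 subunit genes had an expressed probe. Cox7b2 and Cox8c, isoforms known mainly from testis, were well above background on 0 arrays. The other 3 probes that were not expressed were second probes of Atp5j and Ndufb5. Each gene is represented by its probe with the highest mean signal, and all representative probes of the 79 genes were well above background on 10 of 10 arrays. The median mean log2 signal of these genes was 13.5, against 8.20 over all 27811 expressed probes, so most subunit transcripts sat in the bright part of the array.

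The arrays differed from each other in ways that the label does not explain. On the first principal component of all expressed probes, which held 75.1% of the variance, mice 4, 5, 6 and 7 lay on one side and the other mice on the other. Mouse 2 stood apart on the second component (8.81%). The correlation of log2 ratios between arrays over all probes ran from -0.33 to 0.88. The labels give no feature that parts these mice. The 10 arrays lay on 5 slides of 2, with mice 3 and 4 on one slide, 5 and 6 on the next and 7 and 8 on the next, so slides 2 and 4 each hold 1 mouse of either side.

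The mean over the subunit transcripts was lowest in mice 4, 5, 6 and 7 for each of the 5 complexes. Averaged over its genes, complex I had a mean log2 ratio of -0.35, -0.33, -0.20 and -0.40 in mice 4 to 7, and of 0.08, 0.01, -0.0032, 0.14, 0.19 and 0.13 in mice 1, 2, 3, 8, 9 and 10. The range of 0.59 corresponds to the distance between mouse 7 and mouse 9. Complex III ran from -0.31 in mouse 7 to 0.30 in mouse 9, and complex IV from -0.40 in mouse 7 to 0.12 in mouse 9. Complex V ran from -0.26 to 0.14 and complex II from -0.25 to 0.15. Mouse 7 was lowest and mouse 9 highest in all 5 complexes.

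**Figure D1:**
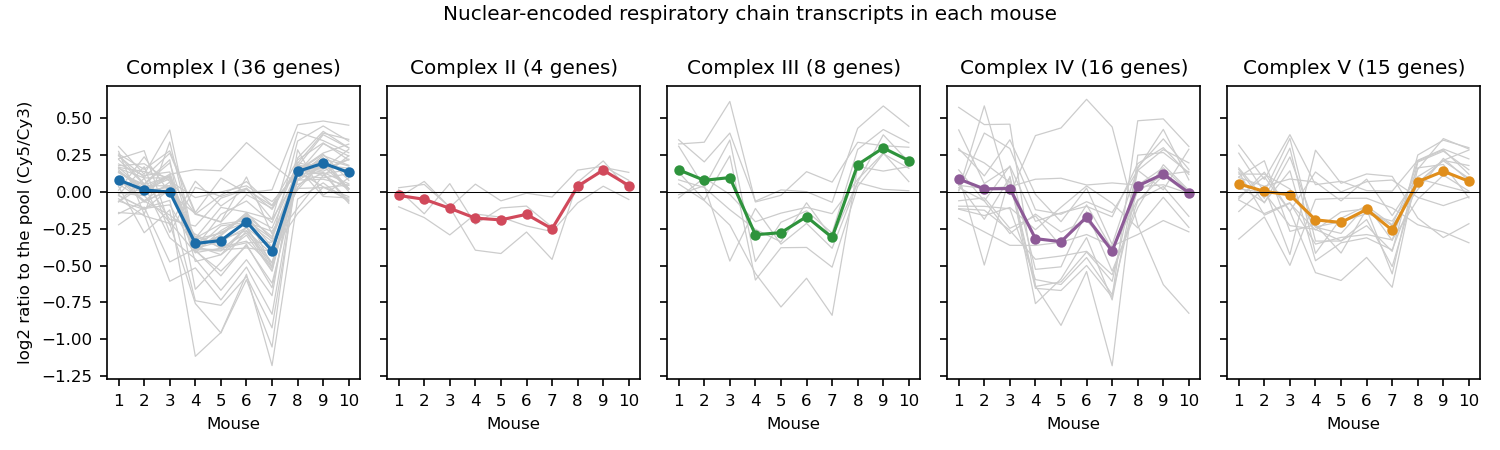
Log2 ratio of Cy5 (single mouse) to Cy3 (pool) for each mouse, 1 panel per complex. Grey lines are single genes, coloured points the mean over the genes of the complex, and lines only join the points of 1 gene or mean. Mice 4 to 7 have the 4 lowest means in every panel, and the distance between the lowest and highest mean runs from 0.40 in complex II to 0.61 in complex III.

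The SD of the complex mean between the 10 mice was 0.23 for complex I, 0.12 for complex II, 0.23 for complex III, 0.19 for complex IV and 0.14 for complex V. The same mean over all expressed probes had an SD of 0.03. Normalization within each array centres that mean, so it is no background for the complexes. Differences between complexes within a mouse were smaller. Complex I minus complex III lay between -0.10 and -0.03 in all 10 mice (SD 0.02), the steadiest of the 10 differences. Complex II minus complex III had the largest SD (0.12), and ran from -0.21 in mouse 3 to 0.11 in mouse 4. No p-value was computed for these means, since the genes were chosen together.

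Counted by gene, 52 of the 79 subunit genes (65.8%) had their 4 lowest values in mice 4 to 7. Over all expressed probes this share was 21.3%, and over the 1334 expressed probes at least as bright as the median subunit gene it was 28.9%. The opposite order, with mice 4 to 7 highest, was seen in 3 subunit genes (3.80%), against 17.9% of all expressed probes and 22% of the bright ones. By complex, mice 4 to 7 were lowest for 28 of 36 genes of complex I, 1 of 4 of complex II, 6 of 8 of complex III, 9 of 16 of complex IV and 8 of 15 of complex V. Mice 8 and 9 had 70 and 74 of the 79 genes above the gene's own median over mice, and mice 5 and 7 had 7 each. Over all expressed probes the share above the median stayed between 47.8% and 53.4% in every mouse. Centring of each array keeps that share near the middle, so it is no background for these counts.

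These orders hold relative to other probes of similar brightness, which is what normalization within each array by loess compares. With a plain median centring of each array, without loess, mice 4 to 7 held the 4 lowest values for 1 of 79 genes, and mouse 3 had the lowest mean in all 5 complexes. In the authors' normalized values, which follow Cy5 alone, the count was 4. When either set of values was centred on the bright probes instead, the count was 56 and 53. The scanner's own log ratio gave 56. The 4 lowest complex means were not those of mice 4 to 7 in any complex with median centring or in the deposited values, where mouse 3 was among the 4 lowest in all 5 complexes, and mouse 3 took the place of mouse 4 for complex II with the scanner's ratio. In bulk tissue, fewer cells of a type and less RNA per cell cannot be told apart.

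**Figure D2:**
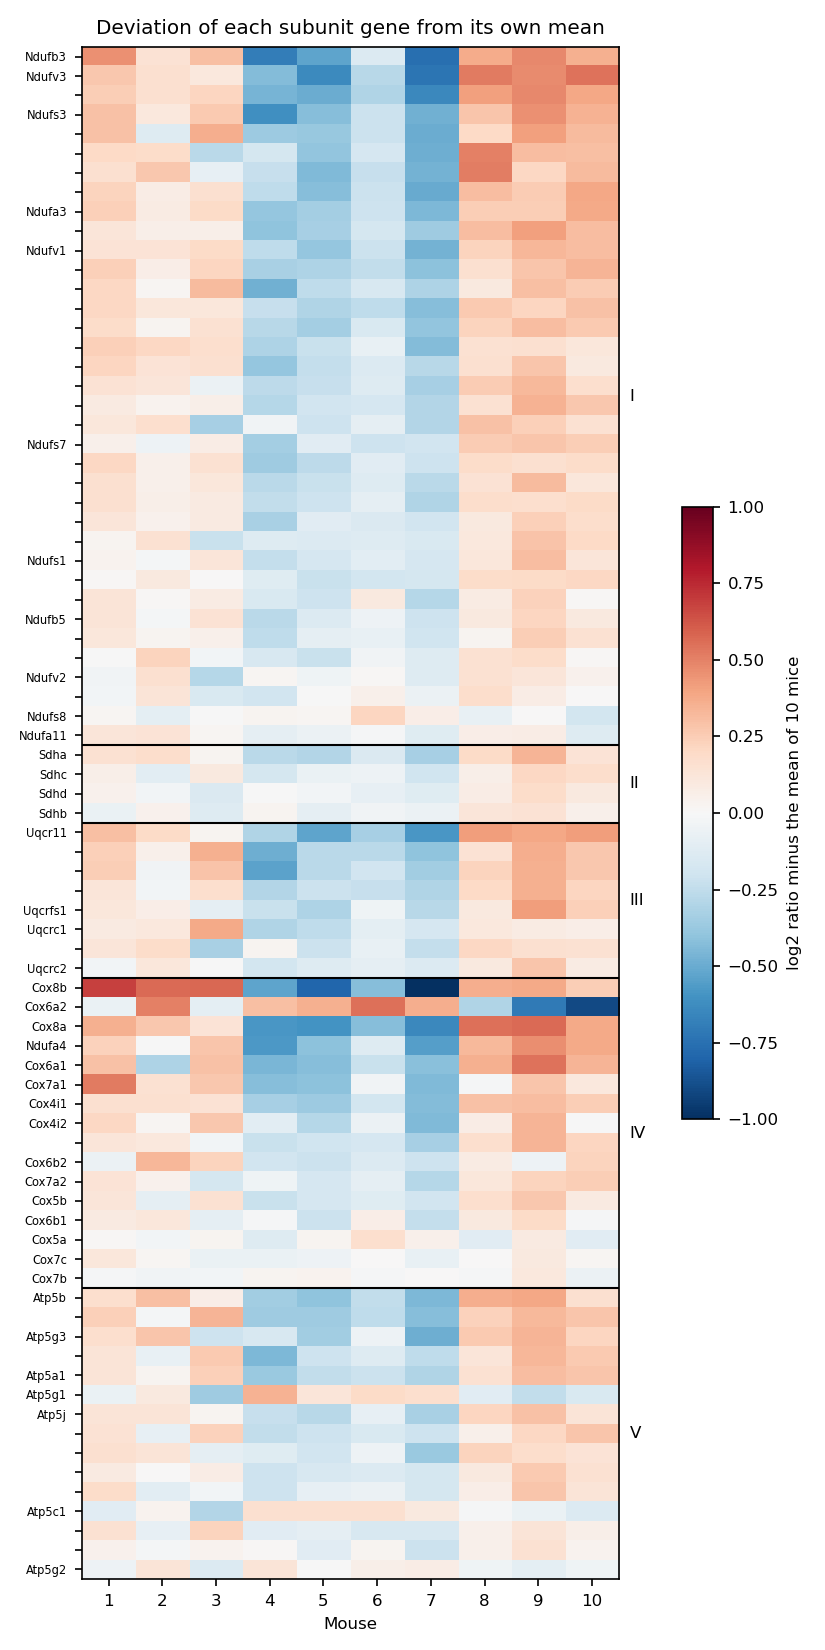
Deviation of the log2 ratio of each of the 79 expressed subunit genes (rows, grouped by complex and ordered by their SD) from the mean of that gene over 10 mice (columns). Rows of genes described in the text carry their symbol, blue is below and red above the mean, and the colour scale ends at 1 log2 unit; most rows are blue in mice 4 to 7, and Cox6a2, Atp5g1 and Atp5c1 are among the few that are red there.

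The spread of the members between mice was set against that of the pool, which was the same RNA on every array. The median SD of log2 Cy5 over the 79 subunit genes was 0.21, and that of log2 Cy3 was 0.06. Over all 25049 probes tested these medians were 0.20 and 0.08, so the subunit genes differed from them in the pool as well. The variance of Cy5 was higher than that of Cy3 for 95 of 127 member probes with values in both channels on all arrays (74.8%; Pitman-Morgan test, Benjamini-Hochberg adjusted p under 0.05). Over all 25049 probes tested this share was 59.7%, and over the bright probes 70.4%. The member probes include dimmer second probes, so their share is not matched to the bright probes. Cy5 was less variable than Cy3 for 0 member probes, against 0.16% of all probes. Read from the brightest probe of each gene, Cy5 was more variable for 66 of 79 subunit genes (83.5%), a larger share than over the bright probes. These were 30 of 36 genes of complex I, 3 of 4 of complex II, 7 of 8 of complex III, 13 of 16 of complex IV and 13 of 15 of complex V. The bright probes start at the median signal of the 79 genes and include the brighter of them. The share over genes is therefore not fully matched to the bright probes either.

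The count of 95 rests on normalization and on mice 4 to 7. It was 27 (21.3% of the members tested, against 40.6% of all probes) with median centring and 3 (2.36%, against 18.7%) without normalization between arrays, so in both settings the share of members lay below that of all probes. It was 56 (44.1%, against 41.3%) with deviations within slides, and 28 (22.0%, against 14.2%) when mice 4 to 7 were left out. Without those mice, the SD of the complex mean was 0.08 for complexes I and III, 0.05 for complex IV and 0.06 for complex V.

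**Figure D3:**
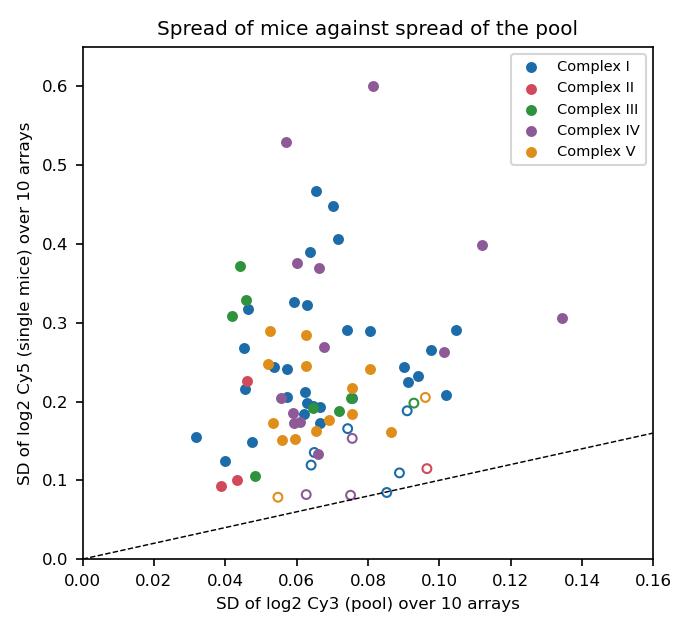
SD of log2 Cy5 (single mice, vertical) against SD of log2 Cy3 (pool, horizontal) over 10 arrays for the 79 subunit genes, 1 point per gene, coloured by complex. Filled points passed the Pitman-Morgan test, the dashed line marks equal SD, and the axes have different scales; Cox8b, with 0.60 against 0.08, is the highest point.

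The core subunits of complex I include, but are not limited to, those that carry the flavin and the iron-sulfur clusters of NADH dehydrogenase. Of the 7 nuclear core genes, Ndufs3 had the largest spread, from -0.66 in mouse 4 through a median of 0.13 to 0.41 in mouse 9 (SD 0.40). Its Cy5 was more variable than its Cy3 (SD 0.39 and 0.06, Pitman-Morgan adjusted p = 0.00016). Ndufv1, which binds NADH and the flavin, ran from -0.62 in mouse 7 to 0.18 in mouse 9 (median -0.01, SD 0.30, Pitman-Morgan adjusted p = 3.98e-05). Both genes had their 4 lowest values in mice 4 to 7, with no overlap with the other mice.

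Ndufs1, the largest iron-sulfur subunit, ran from -0.34 in mouse 4 to 0.20 in mouse 9 (median -0.09, SD 0.17). Ndufs7 ran from -0.14 in mouse 4 to 0.48 in mouse 9 (median 0.20, SD 0.22). In both genes, too, mice 4 to 7 were below all others. Ndufv2 and Ndufs8, which also hold iron-sulfur clusters, did not share this order. Ndufv2 was lowest in mouse 3 (-0.28) and highest in mouse 2 (0.17), and Ndufs8 was highest in mouse 6 (0.33) and lowest in mouse 10 (-0.06), with mice 4 to 7 above the other 6. The spread of Ndufs8 was small (SD 0.10).

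Among the accessory subunits of complex I, which surround the core, Ndufb3 had the largest SD of the whole complex (0.49). It was -1.11, -0.95, -0.56 and -1.18 in mice 4 to 7, and between -0.28 and 0.06 in the other 6 (Pitman-Morgan adjusted p = 4.71e-05). Ndufa11 had the smallest SD for a representative probe (0.10), from -0.08 in mouse 10 to 0.19 in mouse 2. The SDs of its Cy5 and Cy3 were both 0.085 (Pitman-Morgan adjusted p = 0.984). On average the 29 accessory genes had a wider range over mice (-0.44 to 0.17) than the 7 core genes (-0.24 to 0.26).

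Complex II is the only complex of the chain with no subunit encoded by mitochondrial DNA. Its 4 genes split. Sdha, the flavoprotein, ran from -0.46 in mouse 7 to 0.21 in mouse 9 (median -0.05, SD 0.24, Pitman-Morgan adjusted p = 0.000568), with mice 4 to 7 below all others. Sdhb, the iron-sulfur subunit, ran only from -0.11 in mouse 3 to 0.17 in mouse 9 (median 0.02, SD 0.09, Pitman-Morgan adjusted p = 0.0375). For Sdhb, mice 4 to 7 lay among the others, at 0.05, -0.06, -0.01 and -0.04.

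The membrane anchors of complex II, Sdhc and Sdhd, ran from -0.24 in mouse 7 to 0.16 in mouse 9 and from -0.29 in mouse 3 to 0.04 in mouse 9. Their SDs were 0.14 and 0.10. Cy5 of Sdhc was not called more variable than Cy3 (SD 0.11 and 0.10, Pitman-Morgan adjusted p = 0.684). The second, dimmer probe of Sdhb also had its lowest value in mouse 3 (-0.47), and its r with the brighter one was 0.79 over 10 mice.

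In complex III, Uqcr11, a small accessory subunit, had the largest SD (0.40), from -0.84 in mouse 7 to 0.17 in mouse 8 (median -0.14, Pitman-Morgan adjusted p = 3.62e-06). Uqcrc2, one of the core proteins, had the smallest SD for a representative probe (0.143), from -0.20 in mouse 4 to 0.26 in mouse 9. Its value averages 10 spots per array, which lowers technical spread. A second probe of Uqcrb, read from 1 spot, had an SD of 0.1355. Uqcrc1, the other core protein, was highest in mouse 3 (0.61) and lowest in mouse 4 (-0.07, median 0.31). For Uqcr11, Uqcrc2 and Uqcrc1, mice 4 to 7 lay below the other mice. Uqcrfs1, the Rieske iron-sulfur protein, ran from -0.34 in mouse 5 to 0.38 in mouse 9 (median -0.02, SD 0.23) but its Cy5 was not called more variable than its Cy3 (SD 0.20 and 0.09, Pitman-Morgan adjusted p = 0.0699).

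Complex IV contained both the most and the least variable genes of the chain, and most of its isoform pairs. Cox8b, the heart and muscle isoform of subunit VIII, was 0.57, 0.45 and 0.46 in mice 1 to 3, -0.64, -0.90, -0.54 and -1.18 in mice 4 to 7, and 0.25, 0.26 and 0.13 in mice 8 to 10. Its SD of 0.64 was the largest of all 79 subunit genes (Pitman-Morgan adjusted p = 2.92e-05). The ubiquitous isoform Cox8a also separated mice 4 to 7, from -0.71 in mouse 7 to 0.49 in mouse 9 (median 0.13, SD 0.50). Cox8b minus Cox8a was positive in mice 1, 2 and 3 (0.29, 0.26 and 0.39), 0.02 in mouse 4, and lay between -0.46 and -0.04 in the other mice. The Cox8b probe was dimmer, with a mean log2 signal of 10.8 against 15.8. Loess compares probes of similar brightness, so this difference depends on the normalization.

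Cox6a1 and Cox6a2, the liver and the heart and muscle isoforms of subunit VIa, parted the same mice in opposite directions. Cox6a1 was -0.50 in mouse 2 and between -0.64 and -0.41 in mice 4 to 7, and between 0.10 and 0.36 in mice 1, 3, 8, 9 and 10. Cox6a2 was 0.58 in mouse 2 and between 0.38 and 0.62 in mice 4 to 7, 0.01 and -0.02 in mice 1 and 3, and -0.23, -0.63 and -0.82 in mice 8, 9 and 10. The 5 mice with the lowest Cox6a1 were therefore the 5 mice with the highest Cox6a2, mouse 2 included. Within those 5 mice both genes rose in the same order, from mouse 4 through mice 5, 7 and 2 to mouse 6. Cox6a2 minus Cox6a1 lay between 1.02 and 1.08 in those 5 mice and between -0.99 and -0.10 in the others. Both isoforms were more variable in Cy5 than in Cy3 (Pitman-Morgan adjusted p = 0.0269 for Cox6a1 and 6.54e-06 for Cox6a2). The Cox6a2 probe was much dimmer, with a mean log2 signal of 7.85 against 16.3, so the difference between these isoforms also depends on the normalization.

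**Figure D4:**
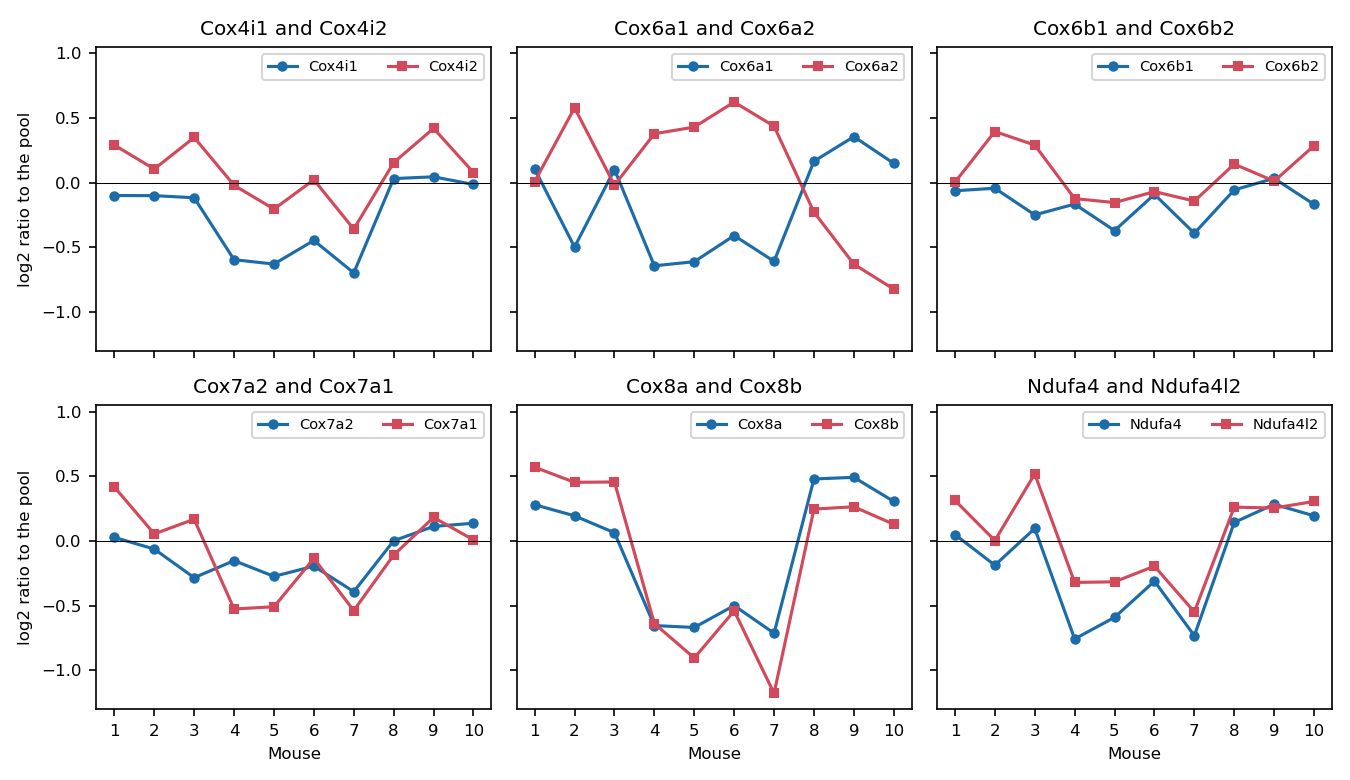
Log2 ratio to the pool in each mouse for 6 pairs of isoform or paralogue genes, blue circles for the common form and red squares for the tissue-dependent one (lines only join the points of 1 gene). Mice 2, 4, 5, 6 and 7 have the lowest Cox6a1 and the highest Cox6a2, with Cox6a2 minus Cox6a1 at 1.02 or more. Cox8a and Cox8b are both lowest in mice 4 to 7.

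Cox4i1 and Cox4i2 encode the common and the oxygen-regulated isoform of subunit IV. Cox4i1 ran from -0.70 in mouse 7 to 0.05 in mouse 9 (median -0.11, SD 0.30) and Cox4i2 from -0.36 in mouse 7 to 0.42 in mouse 9 (median 0.09, SD 0.24). Mice 4 to 7 were lowest for both, for Cox4i2 by a small margin (0.02 in mouse 6 against 0.08 in mouse 10). Cox4i2 minus Cox4i1 ran from 0.09 in mouse 10 to 0.58 in mouse 4. The Cox4i2 probe was dim, with a mean log2 signal of 7.94 against 15.1, so this difference too depends on the normalization. Ndufa4, now counted as a subunit of complex IV, ran from -0.76 in mouse 4 to 0.28 in mouse 9 (SD 0.40). Its hypoxia-inducible paralogue Ndufa4l2 ran from -0.55 in mouse 7 to 0.52 in mouse 3 (SD 0.35), again with mice 4 to 7 lowest. Cy5 of all 4 genes was more variable than Cy3 (Pitman-Morgan adjusted p between 4.15e-05 for Ndufa4l2 and 0.0186 for Cox4i2).

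Cox7a1, the heart and muscle isoform of subunit VIIa, ran from -0.54 in mouse 7 to 0.42 in mouse 1 (median -0.05, SD 0.33), and the common isoform Cox7a2 from -0.39 in mouse 7 to 0.14 in mouse 10 (SD 0.18). Mice 4 to 7 held the 4 lowest values of Cox7a1 but not of Cox7a2, for which mouse 3 was second lowest (-0.28). Cox6b1, the common form of subunit VIb, ran from -0.39 to 0.03, and Cox6b2, known from testis, from -0.15 in mouse 5 to 0.40 in mouse 2. Cox6b2 was dim, with a mean log2 signal of 7.67.

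Cox7b, Cox7c and Cox5a varied less between mice than most genes of complex IV. Cox7b had the smallest SD of all 79 genes (0.045), with a median of 0.04 and a highest value of 0.16 in mouse 9. Cox7c had an SD of 0.07, from -0.37 in mouse 7 to -0.18 in mouse 1. Cox5a, an early partner of Cox4i1 in assembly, ran from -0.26 in mouse 4 to 0.04 in mouse 6 (SD 0.10), while Cox5b, which binds zinc, ran from -0.20 in mouse 4 to 0.30 in mouse 9 (SD 0.18). Cy5 of Cox7b and Cox7c was not called more variable than Cy3 (Pitman-Morgan adjusted p = 0.258 and 0.825). For Cox7c this depended on the probe. A dim probe (mean log2 signal 6.61) was called more variable (Pitman-Morgan adjusted p = 0.0171) and was highest in mice 4 to 7. Its r with the brightest probe was -0.23.

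For 4 genes that the results turn on, the 60 bases of a probe are given 5′ to 3′ in lower case from the scanner files, with positions in mm9. Whether a probe lies in coding sequence was not looked up. Only probes with at least 1 reading frame free of stop codons were considered, so having such a frame is no sign of coding sequence. They show what was hybridised for a complex IV subunit that was low in mice 4 to 7 (Cox4i1 at chr8:123197924-123197983, plus strand), for a heart and muscle isoform that was also low there (Cox7a1 at chr7:30970337-30970948, plus strand), for a subunit that was not low there (Sdhb, second probe, at chr4:140529606-140529665, plus strand) and for the complex III core protein with its peak in mouse 3 (Uqcrc1 at chr9:108851008-108851487, plus strand). The spans of 612 and 480 bases for Cox7a1 and Uqcrc1 are longer than the 60 bases of the probe, so these 2 probes cross an intron and read spliced RNA.
Cox4i1: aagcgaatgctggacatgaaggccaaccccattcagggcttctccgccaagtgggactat
Cox7a1: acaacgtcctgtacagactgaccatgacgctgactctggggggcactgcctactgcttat
Sdhb: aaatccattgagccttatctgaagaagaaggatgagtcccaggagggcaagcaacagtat
Uqcrc1: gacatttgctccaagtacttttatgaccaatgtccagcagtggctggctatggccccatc

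In complex V, Atp5b, the catalytic beta subunit, had the largest SD (0.33), from -0.65 in mouse 7 to 0.18 in mouse 9 (median -0.09, Pitman-Morgan adjusted p = 0.000221). Atp5a1, the alpha subunit, ran from -0.47 in mouse 4 to 0.21 in mouse 9 (SD 0.26). Mice 4 to 7 were below all others for both. The 3 genes of subunit c, which forms the membrane ring and is the same mature protein from each gene, behaved differently from one another. Atp5g3 ran from -0.56 in mouse 7 to 0.27 in mouse 9, Atp5g2 from -0.13 in mouse 3 to 0.13 in mouse 4 (SD 0.09, the smallest in the complex for a representative probe), and Atp5g1 from -0.43 in mouse 3 to 0.28 in mouse 4.

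Atp5g1 had mice 4 to 7 as its highest 4, at 0.28, 0.06, 0.12 and 0.10, and all 3 genes of subunit c were more variable in Cy5 than in Cy3 (Pitman-Morgan adjusted p between 0.000205 for Atp5g1 and 0.00679 for Atp5g2). With Ndufs8, the other subunit gene of this order was Atp5c1, the gamma subunit of the stalk, which was highest in mouse 6 (-0.04) and lowest in mouse 3 (-0.50). For Atp5g1 and Atp5c1 the order depended on the probe. The second probe of Atp5c1 (chr2:9977665-9977724, against chr2:9977788-9980644 for the first, both mm9 and minus strand) had its lowest value in mouse 4 (-0.44), and its r with the first was -0.45. The second probe of Atp5g1 had its lowest value in mouse 6 (-0.26), with r = -0.37. The second probe of Atp5g2, with a mean log2 signal of 14.3 against 14.5, ran from -0.66 in mouse 3 to 0.03 in mouse 2 with an SD of 0.19 (r = 0.85 with the first).

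Over the 29 member genes with 2 or more expressed probes, there were 59 pairs of probes, and the median r over mice was 0.83. An r above 0.8 was found in 36 pairs and one below 0 in 9. The lowest was that of Ndufa3 (-0.51), whose dim probe on another transcript (mean log2 signal 6.51) was highest in mouse 6 (0.52), while both bright probes had mice 4 to 7 lowest and an r of 0.97 with each other. In Ndufv3, a complex I subunit known to be made in a long and a short form, the brightest probe (chr17:31668209-31668268 in mm9) ran from -1.05 in mouse 7 to 0.22 in mouse 10. The probe at chr17:31665148-31665207, also on the plus strand, ran from -0.71 to 0.36 (r = 0.95 with the first). The dim probe on another transcript, at chr17:31663758-31663817, ran from -0.05 to 0.32, with r = -0.39.

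Of the 9 symbols that are no subunit, 3 had mice 4 to 7 lowest, namely Ndufa4l2 and the assembly factors of complex I Ndufaf1 and Ndufaf3. This order was held by 21.3% of all expressed probes and 28.9% of the bright ones. Ndufaf1 ran from -0.47 in mouse 7 to 0.26 in mouse 9 (Pitman-Morgan adjusted p = 7.37e-05). Ndufaf2, Ndufaf3 and Ndufaf4, also assembly factors, had SDs of 0.09, 0.14 and 0.15. Ndufaf2 was highest in mouse 4 (0.10), and Ndufaf4 highest in mouse 8 (0.27). Cox7a2l, which helps complexes III and IV to associate, had an SD of 0.08. Cox4nb, a neighbour of Cox4i1 now called Emc8, had an SD of 0.15. Atp5s and Atp5sl had SDs of 0.11 and 0.06. The mean over these 9 genes ran from -0.15 in mouse 7 to 0.14 in mouse 8, a narrower range than that of any complex.

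Relations between named genes could mostly be examined only within the 6 mice 1, 2, 3, 8, 9 and 10, because mice 4 to 7 held the 4 lowest or the 4 highest values of at least 1 gene of the pair, or a wide gap parted them from the others. Of 22 pairs, 21 could be run, 19 over 6 mice and 2 over 10. Of these, 0 passed after Benjamini-Hochberg adjustment over the 21 pairs, and 3 had an unadjusted permutation p under 0.05. Ndufs1 and Ndufv1 had r = 0.86 (exact permutation p = 0.0028, adjusted 0.058) and rho = 0.94 (exact permutation p = 0.017, adjusted 0.35). Without the 2 mice farthest from the median of Ndufs1, r was 0.77. Sdha and Sdhb had r = 0.85 (exact permutation p = 0.022, adjusted 0.19) and rho = 0.83 (exact permutation p = 0.058, adjusted 0.41), and r = 0.55 without the 2 farthest mice.

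Sdhb and Uqcrfs1 had r = 0.69 over 10 mice (permutation p = 0.028, adjusted 0.19) and rho = 0.67 (permutation p = 0.039, adjusted 0.41). Their r was 0.57 without the 2 farthest mice and 0.47 within slides. Within the 6 mice, Cox4i1 and Cox4i2 had r = 0.03, Cox8a and Cox8b r = -0.56, and Ppargc1a, which encodes a coactivator of mitochondrial genes, had r = -0.55 with Ndufs1. Without the 2 farthest mice these were -0.71, -0.49 and 0.43, so the sign turned for the first and the last. The r of 0.87 between Ndufs1 and Cox5b (exact permutation p = 0.058, adjusted 0.24) was 0.12 without the 2 farthest mice. With the scanner's log ratio 5 pairs passed, and with median centring 13.

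The other genes of the pathway were described by fixed lists. Over all probes, 59.7% were more variable in Cy5 and 21.3% had mice 4 to 7 lowest. Over the bright probes these shares were 70.4% and 28.9%. Mice 4 to 7 were highest for 17.9% of all expressed probes. All 13 subunits encoded by mitochondrial DNA were expressed, and 11 had their 4 lowest values in mice 4 to 7. Their mean was -0.43, -0.41, -0.41 and -0.41 in mice 4 to 7 and 0.45 in mouse 9, a wider range than that of the nuclear subunits, whose mean ran from -0.36 to 0.18. In mouse 8 it was -0.07, against 0.10 for the 79 nuclear subunit genes. Of the 12 tested in both channels, 9 were more variable in Cy5 than in Cy3 (Pitman-Morgan adjusted p under 0.05) and 0 less.

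Among electron carriers and the enzymes that make coenzyme Q, 12 of 14 genes were expressed, 10 were more variable in Cy5, and 5 had mice 4 to 7 lowest. Etfa, a subunit of the flavoprotein that takes electrons from fatty acid oxidation, ran from -1.01 in mouse 4 to 0.53 in mouse 9. Of the 14 genes for the citric acid cycle and mitochondrial mass, 12 were more variable in Cy5 and 8 had mice 4 to 7 lowest, with a mean from -0.45 in mouse 7 to 0.19 in mouse 9. Of 24 expressed assembly factors outside the pattern, 17 were more variable and 7 had mice 4 to 7 lowest. Both counts were close to the shares over the bright probes. Another 2 had mice 4 to 7 highest. One of these 2, Atpif1, the inhibitor of the ATP synthase, was 0.96 in mouse 4 and -0.61 in mouse 9.

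The 11 regulators of mitochondrial genes had the narrowest range of these lists, with a mean between -0.11 and 0.09 and 4 called more variable in Cy5. Nrf1 ran from 0.03 to 0.32, Tfam from -0.27 to 0.04 and Esrra from -0.18 to 0.08. Ppargc1a was highest in mouse 2 (0.84), and was between -0.66 and -0.04 in the others.

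Markers of cell types were given the same description. The 10 adipocyte markers were all expressed, and all 10 had mice 4 to 7 lowest. Their mean was -2.15, -1.91, -1.38 and -2.37 in mice 4 to 7 and between -0.20 and 0.63 in the others, a far wider range than that of the subunits. Endothelial markers ran from -0.91 in mouse 7 to 0.29 in mouse 10, with 7 of 8 lowest in mice 4 to 7. Pericyte and smooth muscle markers ran from -1.13 in mouse 7 to 0.40 in mouse 2. Mesothelial markers ran from -1.66 in mouse 4 to 0.26 in mouse 8.

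All 9 macrophage markers measured were highest in mice 4 to 7, with a mean of 0.86, 0.87, 0.72 and 0.99, and lowest in mouse 9 (-1.10). Of the blood markers 4 of 7 were expressed, with means from -1.63 in mouse 7 to 0.39 in mouse 8. The part of these cell types in the order of the subunit genes was not tested. Of the skeletal muscle markers, Ckm, Myh1, Myh4, Tnnt3 and Mylpf were well above background on 0 arrays. The 3 of 9 that were expressed had means from -0.58 in mouse 4 to 0.42 in mouse 3, but did not agree. Acta1 had mice 4 to 7 lowest, Tnni2 was between 0.22 and 0.55 there, and Pvalb was lowest in mouse 10 (-0.82). Of the brown fat markers, Ucp1 was well above background on 1 array and Elovl3 on 0. The 5 of 7 that were expressed had means from -0.50 in mouse 7 to 0.31 in mouse 2, but did not agree either. Mice 4 to 7 were lowest for 1 of them, Cidea (-1.85 in mouse 7), and highest for 1, Dio2 (0.26 in mouse 7). The others had neither order. Sperm markers, 4 of 10 expressed, had means from -2.21 in mouse 7 to -0.82 in mouse 2.

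**Figure D5:**
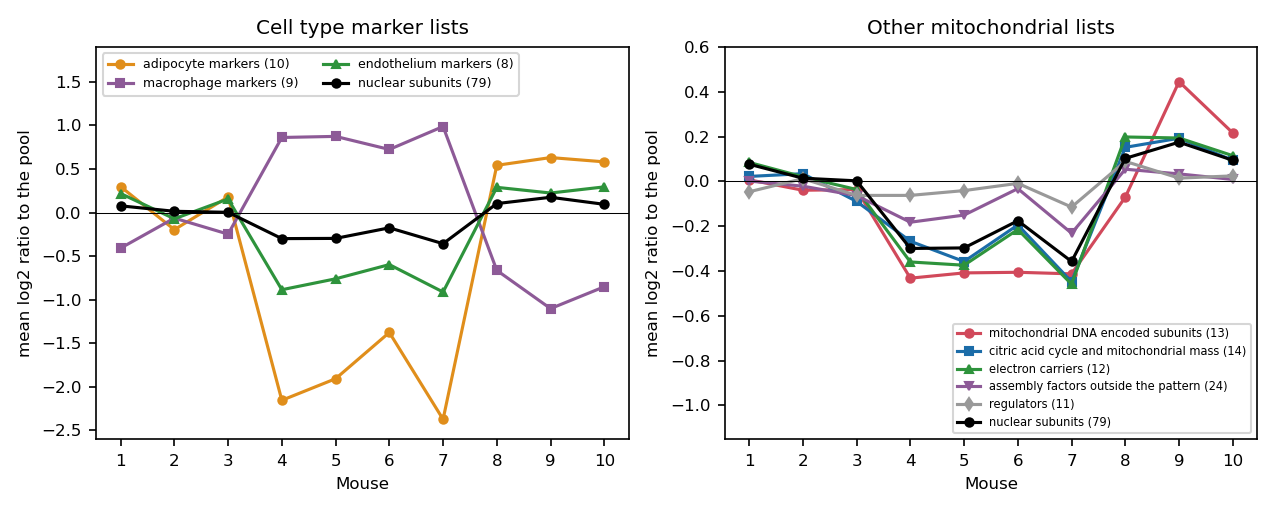
Mean log2 ratio to the pool per mouse for the 79 nuclear subunit genes (black, both panels) beside cell type markers (left) and other mitochondrial genes (right), with the number of expressed genes in parentheses and different vertical scales. Adipocyte markers drop to -2.37 in mouse 7 and macrophage markers reach 0.99 there, while the subunits lie at -0.36.

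The arrays were compared between slides. limma's moderated F test called 0 of 128 member probes different between slides after adjustment, as it did over all 27718 probes (0%). An unadjusted p under 0.05 was found for 1 member probe, that of Cox6a2 (moderated F test, p = 0.017), against 4.1% of all probes. On slide 2, complex I was -0.0032 in mouse 3 and -0.35 in mouse 4, and on slide 4 it was -0.40 in mouse 7 and 0.14 in mouse 8. Complex IV was 0.02 and -0.32 on slide 2 and -0.40 and 0.04 on slide 4. Mouse 4 and mouse 7 were thus the lower mouse of their own slide in both complexes. Such splits widen the spread within slides and lower the power of the F test, so 0 calls do not exclude slide differences.

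The promoters of the members were searched for binding motifs of factors known to act on nuclear respiratory genes. The RefSeq table (GRCm38.p6) held 76 promoters for 71 of the 90 symbols, and the 250 bases before the start were read on both strands. The NRF1 motif, a palindrome of 10 bases that stands in capitals in the Cox6a1 and Atp5g2 promoters, was found in 5 of these 76 (6.58%), against 0.782% of 32851 promoters. The ETS motif bound by GABPA, CCGGAAG, was found in 13 (17.1%), against 6.91%. The motif of the oestrogen-related receptors, TCAAGGTCA, was found in 1 (1.32%), that of Atp5g3, against 0.387%.

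Genes with a motif did not share 1 pattern. The ETS motif was found before Ndufs3 and Uqcr11, with SDs of 0.40, and before Sdhd, with an SD of 0.10. The NRF1 motif was found before Cox6a1, with an SD of 0.40, which also held an ETS match, and before Atp5g2, with an SD of 0.09 or 0.19 by probe. Cox8b, with the largest SD, held none of the 3 in this window. These 5 promoters are shown with the matches in capitals, all on the minus strand and 5′ to 3′ with the start at their right end: Ndufs3 at chr2:90904722-90904971, Uqcr11 at chr10:80406822-80407071, Cox6a1 at chr5:115348959-115349208, Atp5g2 at chr15:102671048-102671297 and Cox8b at chr7:140900447-140900696. A match is a description of the letters, not evidence of binding, and no match says only that these letters are absent from the window.
Ndufs3: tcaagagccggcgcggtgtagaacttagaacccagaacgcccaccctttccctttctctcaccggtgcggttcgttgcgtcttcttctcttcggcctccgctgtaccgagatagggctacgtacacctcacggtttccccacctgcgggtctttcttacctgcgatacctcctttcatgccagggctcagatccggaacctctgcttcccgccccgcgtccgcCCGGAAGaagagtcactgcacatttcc
Uqcr11: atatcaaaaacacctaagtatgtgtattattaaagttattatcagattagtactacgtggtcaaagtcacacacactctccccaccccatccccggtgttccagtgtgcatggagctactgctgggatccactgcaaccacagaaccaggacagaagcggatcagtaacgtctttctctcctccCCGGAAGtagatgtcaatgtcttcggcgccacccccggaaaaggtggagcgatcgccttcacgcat
Cox6a1: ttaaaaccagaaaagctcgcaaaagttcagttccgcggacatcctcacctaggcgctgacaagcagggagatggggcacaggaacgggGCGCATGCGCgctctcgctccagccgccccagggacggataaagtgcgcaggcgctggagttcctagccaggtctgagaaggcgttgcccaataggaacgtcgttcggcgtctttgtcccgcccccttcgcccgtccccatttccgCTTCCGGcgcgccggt
Atp5g2: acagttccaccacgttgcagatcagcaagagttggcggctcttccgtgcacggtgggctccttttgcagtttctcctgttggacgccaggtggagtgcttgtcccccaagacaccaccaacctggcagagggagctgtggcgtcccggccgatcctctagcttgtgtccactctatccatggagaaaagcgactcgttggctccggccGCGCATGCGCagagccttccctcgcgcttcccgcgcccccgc
Cox8b: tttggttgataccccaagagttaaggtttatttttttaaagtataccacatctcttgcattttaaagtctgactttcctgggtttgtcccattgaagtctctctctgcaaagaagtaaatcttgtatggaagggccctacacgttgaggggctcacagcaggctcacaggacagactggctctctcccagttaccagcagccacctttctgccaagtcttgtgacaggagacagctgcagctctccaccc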

How the data were processed

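Epididymal fat RNA of 10 mice was hybridised on 10 two-colour arrays, Cy5 for the mouse and Cy3 for the pool. The deposited scanner files hold the intensity of each spot in both channels and the scanner's log10 ratio, made per the file headers with Agilent Feature Extraction 10.7.3.1 on mm9 annotation. The deposited table of normalized log2 values follows Cy5 alone and was used as an alternative. Median Cy5 was 54.8 to 81.3 per array over a background of 32 to 37, with 0 saturated spots. The number of arrays limits the precision.

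Intensities were corrected with normexp (offset 50) and loess within arrays, and with Aquantile between arrays for channel values (limma 3.58.1, R 4.3.3). Control spots and outlier flags were left out, spots of a probe were averaged, and a gene was read from its brightest probe. Variances were compared by the Pitman-Morgan test and slides by limma's moderated F test, both with Benjamini-Hochberg adjustment over all expressed probes, after testing on simulated data. The shift simulated between slides was far larger than the spread of a probe, so its recovery says nothing about smaller differences. Pairs of genes were tested by permutation over mice (scipy 1.17.1), within the 6 mice left where, on either gene, mice 4 to 7 held the 4 lowest or 4 highest values or a gap of at least 0.4 of the range parted the mice. Genes named were tissue-dependent isoforms and their common forms, catalytic or iron-sulfur subunits, the largest and smallest SD of each complex, genes with 1 mouse far from the others, the 3 lowest correlations between probes of a gene, genes of the pairs and symbols of no subunit. Members, pairs and lists were chosen with earlier results of these data known. Nothing beyond separate mice is stated about the replicates. Alternatives were other background corrections, centrings and filters, the scanner's ratio, the deposited values, slide as a block and leaving out mice.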

Additional observations from a re-analysis of the deposited data

Results flagged for a closer look

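Of 88 member genes examined, 1 had a mouse far from the others. Ndufaf2, an assembly factor of complex I, was 0.10 in mouse 4 and between -0.20 and -0.04 in the other 9 mice, so that the gap to the next mouse was 0.479 of the whole range, above Dixon's critical value for 10 samples. Chance flags about 1 in 20 such groups.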

How the results depend on the processing

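With median centring, 27 member probes (21.3%, against 40.6% of all probes) were more variable in Cy5 than in Cy3, 3 (2.36%, against 18.7%) without normalization between arrays, 56 (44.1%, against 41.3%) with slide as a block and 28 (22.0%, against 14.2%) without mice 4 to 7. Median centring gave a mean log2 ratio of 0.56, 0.56, 0.64, 0.50 and 0.62 for complexes I to V, a median over genes of 0.57, 0.52, 0.60, 0.46 and 0.65, and an SD between mice of 0.35 for I, 0.35 for II, 0.30 for IV and 0.34 for V, with a median ratio of 0.32 over all expressed probes and 0.67 over the bright ones. Without mice 4 to 7 that SD was 0.0763 for I, 0.0804 for III, 0.0476 for IV and 0.0563 for V, and in the deposited values it was 0.125 for IV. Mice 4 to 7 were lowest for 1 subunit gene with median centring and for 4 in the deposited values. Of the pairs, 13 passed with median centring and 5 with the scanner's ratio.

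The sign of r turned for Cox4i1 and Cox4i2 without background subtraction (-0.014), in the deposited values (-0.010), without mouse 2 (-0.17) and without the 2 farthest mice (-0.71). It turned for Cox7a1 and Cox7a2 with median centring (0.88), the scanner's ratio (0.15) and the deposited values (0.24), and for Atp5a1 and Atp5b with these (0.95, 0.50 and 0.48) and without mouse 2 (0.096). With median centring it also turned for Cox8a and Cox8b (0.85), Uqcrc1 and Uqcrc2 (0.99), and Ppargc1a with Cox7a1 (0.43) and Ndufs1 (0.44). Without mouse 2 and without the 2 farthest mice it turned for Ndufa4 and Ndufa4l2 (-0.49 and -0.32), Ndufa4l2 and Rgs5 (-0.49 and -0.74), and Ppargc1a and Ndufs1 (0.11 and 0.43), and in the latter for Ppargc1a and Cox7a1 (0.23). The cause was not tested. The log2 ratio of 86 of 88 genes moved by more than its SD with median centring. No paired analysis was possible because there is 1 group. The alternatives without mice 4 to 7 and with centring on bright probes were chosen after seeing the data.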
